A study of Rattus norvegicus with 6 samples.

Results

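Long non-coding RNA genes with known roles in the nucleus were described in liver, 10 in all: Neat1, Malat1, Gas5, Snhg1, Snhg5, Snhg8, Snhg12, Kcnq1ot1, H19 and Meg3. They were taken by symbol from the deposited gene table, and each of the 10 symbols stood on 1 of its 32930 rows. All 10 passed the expression filter of the test. The HFD group (3 libraries) came from animals on a high-fat diet that received the vehicle, 0.5% CMC-Na. The HTG group (3 libraries) came from animals on the same diet that received the herbal formula Huazhuo Tiaozhi granule, whose treatment label is spelled HCG. The labels give an intervention of 12 weeks in each group, and no group on a normal diet was sequenced. For its rat experiment, the study describes gavage in only the later part of the 12 weeks of diet. The labels name rats, the methods of the study name C57BL/6 J mice for the sequencing and male Wistar rats for its diet experiment, and the identifiers of the table are those of mouse genes in Ensembl, as which the rows were read. The age of the sequenced animals is not given in the sources used here. The labels count 6 animals for the 6 libraries but tie no library to an animal, so p-values measure only the spread between these libraries.

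Long non-coding RNAs of the nucleus fall into several kinds. Neat1 is the RNA scaffold of paraspeckles, nuclear bodies that hold certain RNAs and proteins back, and Malat1, its neighbour on the chromosome, gathers in nuclear speckles, where splicing factors are stored. Gas5, Snhg1, Snhg5, Snhg8 and Snhg12 are host genes: their introns carry small nucleolar RNAs (snoRNAs), which guide the chemical modification of ribosomal RNA, while the spliced remainder is exported and often removed by nonsense-mediated decay. Kcnq1ot1, H19 and Meg3 are expressed from imprinted regions, in which only the copy from 1 parent is active. Of these, Kcnq1ot1 silences its neighbours from the paternal copy, while H19 and Meg3 are maternal transcripts that are abundant in fetal liver and low in adult liver.

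The libraries held between 50648778 and 90563477 estimated counts, or roughly between 12662194 and 22640869 fragments when 4 counts are taken as 1 fragment, and HTG library 3 had the fewest. FPKM, the deposited level, is scaled by gene length and by library depth. The 8 marker genes of hepatocytes, such as Alb and Ttr, summed to between 39125 and 45520 FPKM. Of these 8, 1 was higher (Apoa1) and 3 were lower (Cps1, Apob and Tat) in the HTG group at an unadjusted p under 0.05 in edgeR. At that threshold 12.3% of all genes tested were higher and 12.4% were lower. Rows of the mitochondrial chromosome took from 4.97% to 6.45% of the counts in the HFD group and from 9.31% to 15.2% in the HTG group. Rows annotated as lncRNA and not as protein coding took from 0.657% to 0.712% in the HFD group and from 0.792% to 1.39% in the HTG group. Without Neat1 and Malat1, this share was 0.592% to 0.661% against 0.722% to 1.03%. These shares moved with the group, and their part in the results below was not tested.

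Compared per length, the 10 genes ran from 0.03 FPKM (Kcnq1ot1) to 133.55 FPKM (Neat1) over the 6 libraries. Malat1 had the highest mean in the HFD group, with 32.1 ± 6.89 FPKM (SD, n = 3), followed by Neat1 with 21.3 ± 13.2 (SD, n = 3) and Gas5 with 14.7 ± 3.49 (SD, n = 3). The ranges of Malat1 and Neat1 overlapped, as did those of Neat1 and Gas5, and Gas5 exceeded Neat1 in 2 of the 3 HFD libraries. In the HTG group Neat1 came first with 71.9 ± 56.0 FPKM (SD, n = 3), ahead of Malat1 with 43.7 ± 25.8 and Gas5 with 24.2 ± 3.29 (SD, n = 3 each), and these ranges also overlapped from one gene to the next. Below Gas5 the order was Snhg8, Snhg1, Snhg12 and Snhg5 in each group. The ranges of neighbours in this part of the order did not overlap in the HTG group, whereas those of Snhg8 and Snhg1 overlapped in the HFD group. Among the 5748 lncRNA rows, Neat1 ranked 6, Malat1 ranked 9 and Gas5 ranked 19 by mean FPKM over the 6 libraries. The 3 imprinted genes had under 0.4 FPKM in every library. Meg3 and H19 overlapped each other in each group. Kcnq1ot1 had the lowest mean in each group, listed at 0.03 to 0.09 FPKM. In the HTG group its range overlapped those of Meg3 and H19, and in HTG library 2 it exceeded H19 (0.09 against 0.06).

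**Figure D1:**
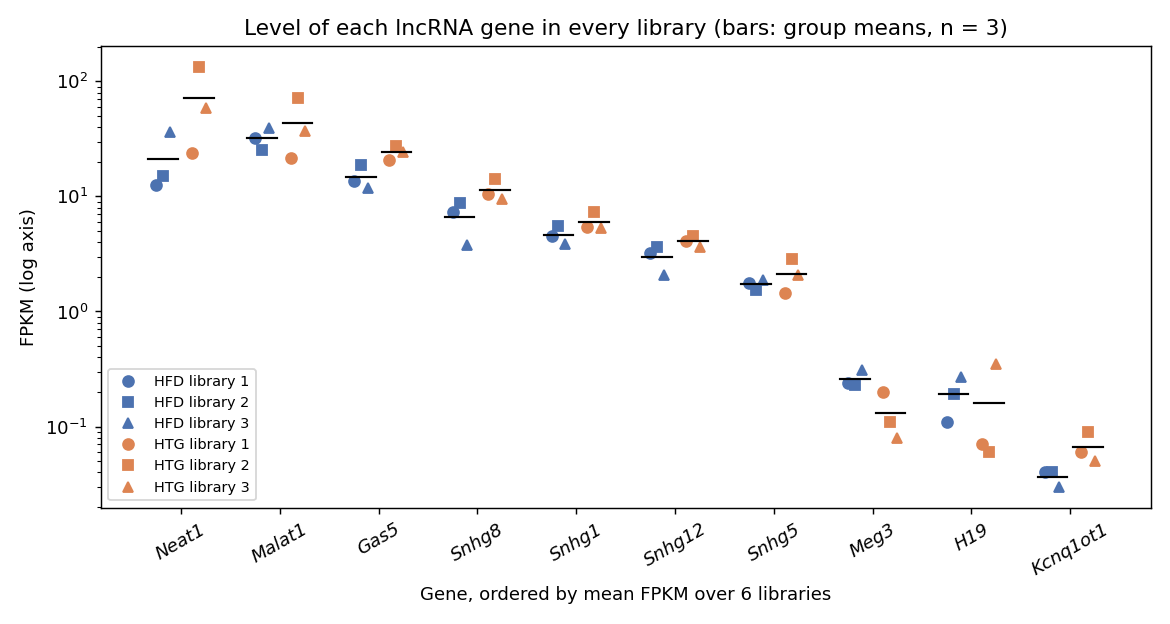
FPKM (vertical log axis) of the 10 genes, ordered by their mean over 6 libraries, with 1 point per library (blue for HFD, orange for HTG, shape for the library number) and a bar at each group mean of 3 libraries. The orange points lie above all blue points for Gas5, Snhg8 and Kcnq1ot1 and below them for Meg3, and HTG library 2 holds the highest Neat1 and Malat1 values, 133.55 and 72.03 FPKM.

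The length by which the authors divided can be read back from each row, as the counts over the product of FPKM and library total. For Neat1 it was between 21887 and 22598 bases, against a listed span of 21163, and for Malat1 between 7229 and 7462 against 6988. It was also close to the full span for the spliced hosts Gas5 (4167 to 4296 bases against 4125), Snhg1, Snhg8 and Snhg12. In Snhg5 it was 3849 to 3941 of 28295 bases, and in Meg3 19888 to 21482 of 31287. The length thus covered unlike parts of the span from gene to gene, and its part in the order by FPKM was not tested. The listed transcripts of Gas5, Snhg1, Snhg5 and Snhg8 include some with retained introns. The short and the long form of Neat1 share 1 row and could not be separated. Libraries were made from poly(A) RNA, and mature Malat1 and the long form of Neat1 are known to end without a poly(A) tail, so their levels here need not be their levels in the tissue.

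The groups were compared on the counts, scaled between libraries by sequencing depth and by the TMM factors of edgeR. Values are given as counts per 1e6 of this scaled library total (CPM). The counts were tested over 18455 genes with edgeR's quasi-likelihood test. None of the 10 genes had an adjusted p under 0.05 (edgeR with Benjamini-Hochberg adjustment over all genes, from 0.0878 to 0.917), a threshold that 0.0108% of all genes tested passed. By fitted value 8 of the 10 lay above 0 and 2 below it, HTG against HFD. The median log2 fold change was 0.03 over all genes tested, and the lower quartile of the lncRNA rows tested was 0.13. At an unadjusted p under 0.05, 4 of the 10 were higher (Neat1, Gas5, Snhg8 and Kcnq1ot1), where 12.3% of all genes tested were higher. At that threshold 1 was lower (Meg3), where 12.4% of all genes tested were lower. In CPM the groups did not overlap for Gas5, Snhg8, Snhg12 and Kcnq1ot1, with HTG above, a pattern that 16.5% of all genes tested showed. They did not overlap for Meg3, with HTG below, as in 15.5% of all genes tested. DESeq2 gave an adjusted p under 0.05 for 2 of the 10, Kcnq1ot1 (0.0282) and Gas5 (0.0466), where 14.7% of the genes with an adjusted p passed. The number with an unadjusted p under 0.05, 5 in all, was 2 without HFD library 1 or without HTG library 2 (edgeR). It was 3 without HFD library 3 or without HTG library 3, 5 without HTG library 1 and 6 without HFD library 2. Of all genes tested, 24.7% had an unadjusted p under 0.05 in the main fit. With 1 library left out, this share was from 16.2% (without HTG library 2) to 25.7% (without HTG library 1).

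The 10 genes belonged to a class whose rows mostly lay higher in the HTG group. Of the 2045 lncRNA rows tested, 19.2% were higher and 0.978% were lower at an unadjusted p under 0.05 (edgeR), and their median log2 fold change was 0.64, against 0.03 for all genes tested. Among the 491 lncRNA rows with a mean FPKM of at least 1, 39.1% were higher and 1.83% were lower. Of the 7 described genes at that level, 3 were higher and 0 were lower. The median over the 10 genes was 0.47, below that of the lncRNA rows tested. In bulk liver, less RNA per cell and fewer cells of a type cannot be told apart, nor can more RNA per cell and more cells.

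**Figure D2:**
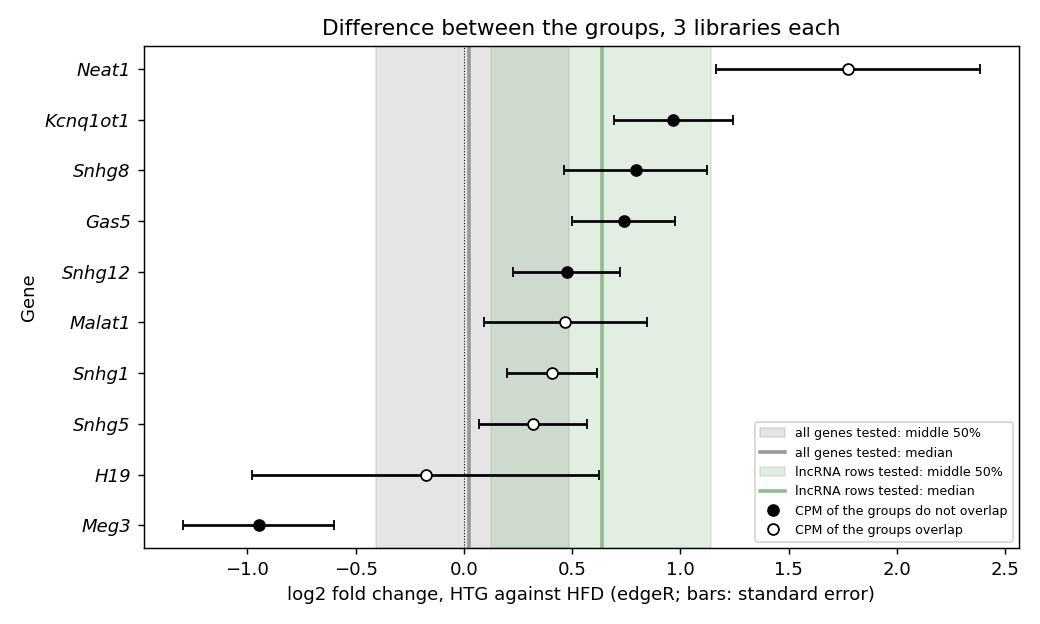
Log2 fold change of each gene, HTG against HFD (horizontal axis), with its standard error from edgeR over 3 libraries a group. Filled points are the 5 genes whose groups do not overlap in CPM, and the shaded bands are the middle 50% of all genes tested (grey) and of the lncRNA rows tested (green), with their medians at 0.03 and 0.64. Apart from Neat1, H19 and Meg3, the points lie within the green band.

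Neat1 (ENSMUSG00000092274, chromosome 19, 5874736 to 5895898, minus strand, as the table lists it, without a named build) had the largest difference of the 10 genes and one of the widest spreads. It had 263, 351 and 777 CPM in HFD libraries 1, 2 and 3 and 546, 2796 and 1414 CPM in HTG libraries 1, 2 and 3. HTG library 1 lay below HFD library 3, so the groups overlapped, and HTG library 2 lay far above the others. The means were 464 ± 275 and 1585 ± 1135 CPM (SD, n = 3 per group), and the log2 fold change was 1.77 (standard error 0.61). The unadjusted p was 0.0187 and the adjusted p 0.124 in edgeR's quasi-likelihood test. Without HTG library 2 the log2 fold change was 1.08 (unadjusted p = 0.0855, edgeR), and it was 2.36 without HFD library 3 (unadjusted p = 0.00819). The unadjusted p also exceeded 0.05 without HFD library 1 (0.0685) and without HFD library 2 (0.0602).

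Malat1 (ENSMUSG00000092341, chromosome 19, 5845717 to 5852704, minus strand) lies near Neat1 on the same strand. It had 223, 195 and 275 CPM in HFD libraries 1, 2 and 3 and 162, 498 and 299.7 CPM in HTG libraries 1, 2 and 3. The HTG group thus held the lowest and the highest of the 6 values. The log2 fold change was 0.47 (standard error 0.37, unadjusted p = 0.244, adjusted p = 0.472, edgeR). Without HTG library 2 it was -0.00167 (unadjusted p = 0.996), and without HTG library 1 it was 0.75 (unadjusted p = 0.0343).

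The ratio of Neat1 to Malat1 within a library, which no scaling between libraries can move, separated the groups. In HFD libraries 1, 2 and 3 it was 0.389, 0.593 and 0.935. In HTG libraries 1, 2 and 3 it was 1.11, 1.85 and 1.56. Malat1 therefore had more FPKM than Neat1 in every HFD library and less in every HTG library. The mean ratio was 0.639 ± 0.276 in the HFD group and 1.51 ± 0.374 in the HTG group (SD, n = 3 per group). On the log2 scale the groups differed by 1.30 (two-sided exact permutation test, p = 0.1, the smallest that 3 libraries against 3 allow). HTG library 1 and HFD library 3 were the closest across the groups. The difference was between 0.99 and 1.62 when each library was left out in turn.

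**Figure D3:**
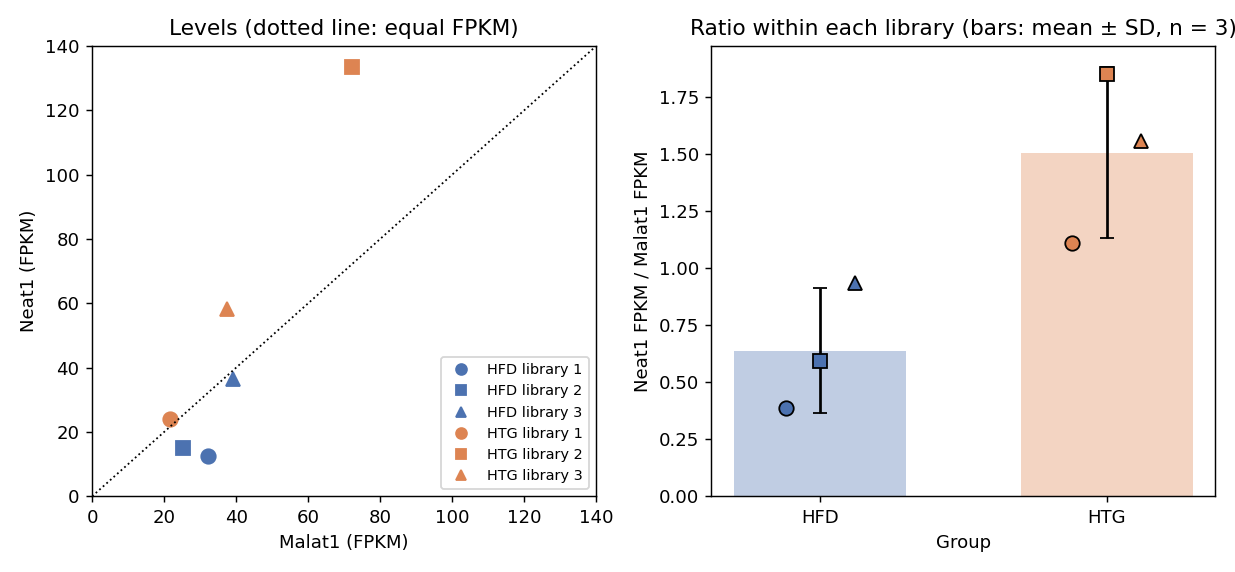
Left, Neat1 against Malat1 in FPKM, 1 point per library, with a dotted line at equal FPKM: the 3 HFD libraries lie below the line and the 3 HTG libraries above it. Right, the ratio of Neat1 to Malat1 in each library, with bars for the group means (0.639 and 1.51) and error bars for the SD of 3 libraries.

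Genes of the nuclear bodies were listed beside their RNAs. Of 12 nuclear speckle genes, 7 were higher and 0 were lower at an unadjusted p under 0.05, and the groups did not overlap in 8 with HTG above and 1 with HTG below. Of all genes tested, 12.3% were higher and 12.4% were lower at that threshold, and 16.5% and 15.5% did not overlap. Their median log2 fold change was 0.49, against 0.03 over all genes tested. Luc7l3, a splicing factor of the U1 complex, had 47.3 ± 7.55 CPM in the HFD group and 85.1 ± 9.64 in the HTG group (SD, n = 3 per group), and Srsf2, a splicing factor of the SR family, had 114 ± 15.9 and 212 ± 29.1 (SD, n = 3 per group). Of 16 paraspeckle protein genes, 5 were higher and 3 were lower, with a median of 0.25. The higher ones included Tardbp, which encodes the RNA-binding protein TDP-43 (log2 fold change 0.84), and Hnrnph3 (0.62). The lower ones included Nono, a core paraspeckle protein (85.3 ± 4.60 and 55.3 ± 5.65 CPM, SD, n = 3 per group), and Hnrnpk (-0.44). Of the other core proteins, neither Sfpq nor Pspc1 had an unadjusted p under 0.05. No gene of these lists had an adjusted p under 0.05 in edgeR, as in all lists that follow.

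Gas5 (ENSMUSG00000053332, chromosome 1, 160861992 to 160866116, plus strand), a host of box C/D snoRNAs first found in growth-arrested cells, was the most abundant of the 5 hosts. It had 54.9, 83.4 and 48.5 CPM in HFD libraries 1, 2 and 3 and 90.1, 109 and 112 CPM in HTG libraries 1, 2 and 3. The groups did not overlap, with HTG library 1 close above HFD library 2. The means were 62.3 ± 18.6 and 104 ± 12.0 CPM (SD, n = 3 per group), and on the log2 scale they differed by 0.74 in the fit (standard error 0.24). The unadjusted p was 0.0135 and the adjusted p 0.108 in edgeR's quasi-likelihood test. Of the fits that left out 1 library, the unadjusted p exceeded 0.05 in that without HFD library 1 (0.0556), and the lowest log2 fold change was 0.58.

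Snhg8 (ENSMUSG00000104960, chromosome 3, 123301194 to 123302053, minus strand), which hosts the box H/ACA snoRNA Snora24, was the shortest row, with 860 bases. It had 6.33, 8.43 and 3.33 CPM in HFD libraries 1, 2 and 3 and 9.74, 12.2 and 9.44 CPM in HTG libraries 1, 2 and 3, without overlap. This corresponded to 60 to 140 fragments in the HFD group and 110 to 297 in the HTG group. The log2 fold change was 0.79 (standard error 0.33, unadjusted p = 0.0412, adjusted p = 0.183, edgeR). It was 0.50 without HFD library 3, which had the lowest value (unadjusted p = 0.0756). The unadjusted p exceeded 0.05 in every other fit that left out 1 library (up to 0.121) except that without HFD library 2 (0.00944).

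Snhg12 and Snhg1 had smaller differences. Snhg12 (ENSMUSG00000086290, chromosome 4, 132035932 to 132038762, plus strand) had 9.19, 11.5 and 6.07 CPM in the HFD libraries and 12.6, 12.7 and 11.9 CPM in the HTG libraries, in the order 1, 2 and 3. The groups did not overlap in CPM, although they did in FPKM, where HFD library 2 (3.65) exceeded HTG library 3 (3.61). The log2 fold change was 0.48 (standard error 0.25, unadjusted p = 0.0879, edgeR). Snhg1 (ENSMUSG00000108414, chromosome 19, 8700801 to 8703811, plus strand) had 13.6, 18.4 and 11.8 CPM in the HFD libraries and 17.5, 22.0 and 18.6 CPM in the HTG libraries. HFD library 2 lay within the HTG range, and the log2 fold change was 0.41 (standard error 0.21, unadjusted p = 0.0838, edgeR). Without HFD library 2, the log2 fold change was 0.60 for Snhg1 (unadjusted p = 0.0142) and 0.70 for Snhg12 (unadjusted p = 0.0199). Without HFD library 3, it was 0.27 for Snhg1 (unadjusted p = 0.244) and 0.26 for Snhg12 (unadjusted p = 0.235).

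Snhg5 (ENSMUSG00000097195, chromosome 9, 88377321 to 88405615, minus strand), which hosts Snord50a and Snord50b, had the smallest difference of the 5 hosts. It had 6.65, 6.34 and 7.03 CPM in HFD libraries 1, 2 and 3 and 5.80, 10.4 and 8.82 CPM in HTG libraries 1, 2 and 3, so HTG library 1 was the lowest of all. The log2 fold change was 0.32 (standard error 0.25, unadjusted p = 0.237, edgeR). It was 0.13 without HTG library 2 (unadjusted p = 0.645) and 0.48 without HTG library 1 (unadjusted p = 0.0654). In HFD library 3, the values of Gas5, Snhg1, Snhg8 and Snhg12 were the lowest of the 6 libraries and that of Snhg5 was the highest of its group. In HTG library 2, 4 of the 5 hosts had their highest value, the exception being Gas5. The ratio of Snhg5 to Gas5 in FPKM was 0.131, 0.0831 and 0.156 in HFD libraries 1, 2 and 3, against 0.0698, 0.104 and 0.0858 for those of the HTG group, and these ranges overlapped (two-sided exact permutation test, p = 0.3).

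The snoRNAs themselves were not measured in these libraries. The table listed 26 snoRNA rows within the 5 hosts, all on the strand of their host: 10 in Gas5, 8 in Snhg1, 5 in Snhg12, 2 in Snhg5 and 1 in Snhg8. In 22 of them the count was 1 in every library, and the highest count of the 26 rows was 9, in Snora61 of Snhg12 in HTG library 1. All these counts were under 12, a fixed limit of 3 fragments that was not estimated from these data. Of the 26 rows, 0 passed the expression filter.

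Other host genes were set beside these 5. Of 16 further host genes on a fixed list, 15 were in the table and 14 were tested, and by fitted value 13 were higher. At an unadjusted p under 0.05, 3 were higher and 0 were lower, with a median of 0.52 on the log2 scale. The 5 hosts described above had a median of 0.48, with 2 higher at that threshold, beside 12.3% of all genes tested and 39.1% of the lncRNA rows with a mean FPKM of at least 1. Snhg20 had 8.60, 8.01 and 5.97 CPM in HFD libraries 1, 2 and 3 and 15.6, 24.6 and 17.4 CPM in HTG libraries 1, 2 and 3 (log2 fold change 1.35, standard error 0.24, unadjusted p = 4e-04, adjusted p = 0.0542, edgeR). Dancr, also called Snhg13, had a log2 fold change of 1.22 and Snhg17 had 0.67. Zfas1, the host with the smallest positive difference (0.23), had an unadjusted p of 0.382 in edgeR. The values of these hosts stood beside a median of 0.64 and a lower quartile of 0.13 over all lncRNA rows tested.

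Genes that act on hosts and snoRNAs, or share a feature with hosts, were described next. Of all genes tested, 12.3% were higher and 12.4% were lower at an unadjusted p under 0.05 (edgeR). In CPM the groups did not overlap in 16.5% with HTG above and in 15.5% with HTG below. Of 16 genes for snoRNP proteins and their assembly, 0 were higher and 2 were lower at that threshold, the latter near the share of all genes. By fitted value, 4 of the 16 were positive (median log2 fold change -0.27). The lower ones were Dkc1, which encodes dyskerin, the enzyme of box H/ACA particles (9.79 ± 0.971 and 5.50 ± 2.09 CPM, SD, n = 3 per group), and Ruvbl1, a chaperone of assembly (14.3 ± 1.23 and 9.79 ± 2.47 CPM, SD, n = 3 per group). Host transcripts are known to begin with a 5′-terminal oligopyrimidine tract, as do mRNAs of the translation machinery. Of 12 such mRNAs outside the ribosomal proteins, 0 were higher and 5 were lower, with a median of -0.39. The lower ones included Eef2, the elongation factor of translocation (1639 ± 373 and 809 ± 237 CPM, SD, n = 3 per group), and Npm1, a nucleolar chaperone (130 ± 28.1 and 85.0 ± 5.49 CPM, SD, n = 3 per group). In CPM the groups did not overlap in 5 of the 12 with HTG below and in 2 with HTG above. The summed FPKM of the 12 was 2613 to 3317 in the HFD group and 1573 to 2354 in the HTG group (two-sided exact permutation test, p = 0.1, the smallest possible). Eef1a1 made up much of this sum, with 1602 to 2005 FPKM in the HFD group and 777 to 1284 in the HTG group. Of 10 nonsense-mediated decay factors, Upf3b was higher (log2 fold change 1.19, unadjusted p = 0.000654, edgeR) and Smg8 was lower (-0.60, unadjusted p = 0.024, edgeR), and the median was 0.05.

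**Figure D4:**
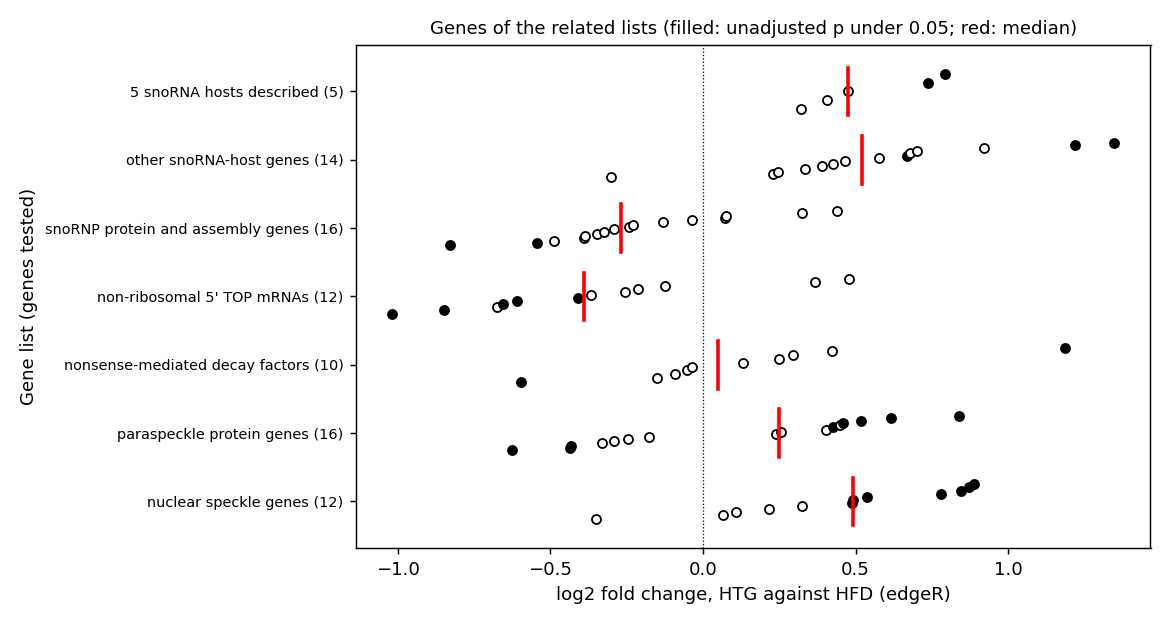
Log2 fold change (HTG against HFD, edgeR) of each gene tested, for the 5 hosts described and for 6 related lists, with the number of genes tested in brackets. Filled points have an unadjusted p under 0.05, red bars are medians, and the vertical offset within a list only separates the points: the medians are 0.48 and 0.52 for the host genes and -0.27 and -0.39 for the snoRNP genes and the 5′-terminal oligopyrimidine mRNAs.

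The genes next to the hosts were set beside them. Gas5 overlaps Zbtb37, a zinc finger gene on the other strand, by 428 bases at their starts. Zbtb37 had 15.3, 19.2 and 33.4 CPM in HFD libraries 1, 2 and 3 and 26.2, 47.7 and 46.8 CPM in HTG libraries 1, 2 and 3, so HFD library 3, lowest for Gas5, was the highest of its group for Zbtb37. Its log2 fold change was 0.83 (standard error 0.33, unadjusted p = 0.0369, edgeR), and the groups overlapped. Slc3a2, which encodes the heavy chain of amino acid transporters, lies 67 bases from Snhg1 on the other strand. It had 44.0 ± 5.54 CPM in the HFD group and 33.8 ± 2.16 in the HTG group (SD, n = 3 per group), with -0.38 as its log2 fold change (unadjusted p = 0.045, edgeR), where that of Snhg1 was 0.41. Trnau1ap, 311 bases from Snhg12 on the other strand, had 17.4 ± 0.69 and 16.7 ± 1.93 CPM (SD, n = 3 per group). Syncrip, the nearest gene below Snhg5, had a log2 fold change of 0.01. Whether counting used the strand is not given in the sources used here, so counts of Gas5 and Zbtb37 in their overlap are uncertain.

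Kcnq1ot1 (ENSMUSG00000101609, chromosome 7, 142757195 to 142850286, minus strand) had the smallest p of the 10 genes. It had 3.77, 3.79 and 2.63 CPM in HFD libraries 1, 2 and 3 and 5.62, 8.49 and 5.83 CPM in HTG libraries 1, 2 and 3, without overlap. The means were 3.40 ± 0.665 and 6.65 ± 1.60 CPM (SD, n = 3 per group), and the log2 fold change was 0.97 (standard error 0.28). The unadjusted p was 0.00747 and the adjusted p 0.0878 in edgeR's quasi-likelihood test, and the unadjusted p stayed at or under 0.0357 in each of the 6 fits that left out 1 library. In limma on log2(FPKM + 0.1) without a filter the difference was 0.28 (unadjusted p = 0.175), on FPKM values deposited with 1 significant digit for this gene. The values rested on 47 to 208 fragments spread over 93092 bases. All of these bases lie within Kcnq1, a potassium channel gene on the other strand. Kcnq1 had 0.88, 1.38 and 1.09 CPM in the HFD libraries and 0.257, 1.74 and 0.470 CPM in the HTG libraries, so the groups overlapped (log2 fold change -0.43, unadjusted p = 0.546, edgeR). Reads from introns of Kcnq1 could not be told from Kcnq1ot1 if counting ignored the strand.

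Meg3 (ENSMUSG00000021268, chromosome 12, 109506879 to 109538165, plus strand) was lower in the HTG group. It had 4.62, 4.99 and 6.00 CPM in HFD libraries 1, 2 and 3 and 4.09, 2.19 and 1.79 CPM in HTG libraries 1, 2 and 3, and HTG library 1 lay close below the HFD group. The means were 5.21 ± 0.712 and 2.69 ± 1.23 CPM (SD, n = 3 per group), and the log2 fold change was -0.95 (standard error 0.35). The unadjusted p was 0.025 and the adjusted p 0.142 in edgeR's quasi-likelihood test. The unadjusted p exceeded 0.05 when HFD library 3 (0.0719), HTG library 2 (0.0814) or HTG library 3 (0.0833) was left out, and without HTG library 1 it was 0.00202, with a log2 fold change of -1.42. In limma on log2(FPKM + 0.1) without a filter the difference was -0.67 (unadjusted p = 0.0815). The fragments numbered 79 to 108 in the HFD group and 21 to 80 in the HTG group. Rian and Mirg, non-coding genes of the same imprinted region, had log2 fold changes of -0.78 (unadjusted p = 0.0681, edgeR) and 0.89 (unadjusted p = 0.129, edgeR). The neighbours Dlk1 and Rtl1 had at most 11 counts in any library, under the fixed limit of 12 counts.

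H19 (ENSMUSG00000000031, chromosome 7, 142129262 to 142131886, minus strand), the host of miR-675, was close to that limit. Its counts were 21, 37 and 52 in HFD libraries 1, 2 and 3, against 16, 16 and 50 for those of the HTG group, or 4 to 13 fragments. The groups overlapped (log2 fold change -0.18, standard error 0.80, unadjusted p = 0.831, edgeR). The direction turned when HFD library 3 (0.11), HTG library 1 (0.14) or HTG library 2 (0.25) was left out, and without HTG library 3, the highest of its group, the log2 fold change was -1.51 (unadjusted p = 0.0711, edgeR). Igf2, the growth factor gene that shares its enhancers, did not pass the filter. Of 12 protein-coding genes in the imprinted regions of H19, Kcnq1ot1 and Meg3, 6 were tested, and 0 of them passed an unadjusted p of 0.05 in either direction (edgeR). Of all genes tested, 12.3% were higher and 12.4% were lower at that threshold. The 6 genes tested included Cdkn1c and Phlda2, which Kcnq1ot1 is known to silence. Their log2 fold changes were 0.42 and 0.90 (unadjusted p = 0.532 and 0.231, edgeR).

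Markers of other liver cells were set beside these low genes. Of all genes tested, 12.3% were higher and 12.4% were lower at an unadjusted p under 0.05 (edgeR). Of 8 markers of stellate cells or fibroblasts, Des was higher and Reln was lower at an unadjusted p under 0.05, and their summed FPKM was 21.6 to 35.5 in the HFD group and 19.8 to 29.7 in the HTG group. Of 8 Kupffer cell markers, 0 were higher and 2 were lower, among them Adgre1 (log2 fold change -1.53, unadjusted p = 0.000334, edgeR), with sums of 301 to 609 and 226 to 438 FPKM. Of 8 sinusoidal endothelial markers 0 passed in either direction, with sums of 10.8 to 32.9 and 18.1 to 34.1 FPKM. Of 8 cholangiocyte markers Sox9 was higher and Epcam was lower, with sums of 50.5 to 61.9 and 33.8 to 66.9 FPKM. Of 8 lymphocyte markers 7 were tested and 0 passed (3.27 to 6.31 and 4.33 to 5.21 FPKM over all 8), and Alas2 alone passed among 7 erythroid markers, lower (230 to 512 and 273 to 613 FPKM). Of 6 exocrine pancreas markers listed, 3 had no count in any library, and no listed marker of the other cell types was at 0 throughout. The sums overlapped between the groups for every cell type listed. Within the 8 hepatocyte markers, however, the groups did not overlap in CPM for 1 with HTG above (Apoa1). They did not overlap for 4 with HTG below (Alb, Apob, Tat and Cps1). Of all genes tested, 16.5% and 15.5% showed these patterns. The part of cell composition in the values of Meg3, H19 and the other genes was not tested.

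Among 18 other known lncRNA genes in the table, 17 were tested. By an unadjusted p under 0.05 in edgeR there were 3 higher and 2 lower genes, with a median log2 fold change of 0.36. At that threshold 12.3% of all genes tested were higher and 12.4% were lower. Of the lncRNA rows tested, 19.2% were higher and 0.978% were lower, and their median was 0.64. The 3 higher genes of the list were Ftx, Firre and Jpx. Firre had 56.2, 36.4 and 61.3 CPM in HFD libraries 1, 2 and 3 and 82.3, 146 and 135 CPM in HTG libraries 1, 2 and 3 (log2 fold change 1.24, unadjusted p = 0.00212, adjusted p = 0.0613, edgeR). Ftx had a log2 fold change of 1.15 (unadjusted p = 0.00123, edgeR). Norad, an abundant cytoplasmic RNA that binds Pumilio proteins, was lower, with 85.2, 110 and 81.3 CPM in the HFD libraries and 55.3, 39.7 and 52.0 CPM in the HTG libraries (log2 fold change -0.91, unadjusted p = 0.00191, adjusted p = 0.0612, edgeR). The counts of Miat were 49, 32 and 41 for the HFD group, against 11, 0 and 3 for the HTG group. All of the latter were under the fixed limit of 12 counts.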

How the data were processed

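Liver RNA was sequenced in 3 HFD and 3 HTG libraries, grouped by their titles. The authors deposited estimated counts per gene, whole numbers not scaled between libraries, and FPKM values. The submitters' processing notes name HISAT2, StringTie and SAMtools without versions and the rat build mRatBN7.2, whereas the rows and coordinates are of mouse Ensembl genes and no mouse build is given in the sources used here. The methods describe strand-marked libraries and the labels a kit without that mark. Among low counts 4 was the most frequent value above 0 (6450 values) and 8 exceeded its neighbours, so 4 counts were taken as about 1 fragment. There were also 5104 values of 1, 4229 of 2 and 2549 of 3, which are no whole fragments on that scale, so fragment numbers are approximate. The supplied RefSeq sequences are of rat, and none is printed.

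Counts were tested over 18455 genes in edgeR 4.0.16 (TMM scaling, filterByExpr, glmQLFTest, group as the only term, p adjusted by Benjamini-Hochberg) in R 4.3.3. Ratios and summed marker levels were compared by two-sided exact permutation tests (scipy 1.17.1). Alternatives were DESeq2 1.42.0, limma 3.58.1 on log2(FPKM + 0.1) or log2(FPKM + 1), 3 scalings, 2 filters, mitochondrial rows left out, counts divided by 4, the replicate number as a block and each library left out. The named genes are the 10 genes, their nearest and overlapping genes, and per list the 2 with the smallest p in each direction under 0.05. Snhg17, Zfas1, Jpx, Sfpq, Pspc1, Eef1a1, Rian, Mirg, Cdkn1c, Phlda2, Igf2, Alb, Ttr and Tat were named after their values were seen. The genes and lists were chosen with earlier results of these data known.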

Additional observations from a re-analysis of the deposited data

How the results depend on the processing

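In 173 fits of single genes under 18 alternatives, 167 kept the direction and the side of an adjusted p of 0.05, and DESeq2 alone moved genes past it, Gas5 and Kcnq1ot1, so that the number of genes with an adjusted p under 0.05 was 2 in place of 0. The 4 reversals were of Malat1 without HTG library 2 (log2 fold change -0.00167, from there to 0.75 over the libraries left out) and of H19 when any of HFD library 3 (0.11), HTG library 1 (0.14) and HTG library 2 (0.25) was left out (from -1.51 to 0.25). The number with an unadjusted p under 0.05, 5 in the main fit of edgeR, was 3 in each of the 3 limma fits on FPKM, of which those with a minimum of 1 FPKM tested 7 genes and the one without lost Kcnq1ot1 and Meg3, and from 2 to 6 when 1 library was left out. The cause of these moves was not tested. Of all genes tested, 24.7% had an unadjusted p under 0.05 in the main fit. This share was 32.1% in the limma fits with a minimum of 1 FPKM and 17% in the one without. It was from 16.2% to 25.7% when 1 library was left out. H19 did not pass the filter on counts divided by 4. With the replicate number as a block, 5 of the 10 genes had an unadjusted p under 0.05, beside 21% of all genes tested. In that fit 0 of the 10 had an adjusted p under 0.05. Same-numbered libraries did not deviate together over genes (r = -0.08, -0.07 and 0.10), so the numbers were not read as pairs. The number of all genes with an adjusted p under 0.05 was 2 in edgeR and 2171 in DESeq2, from 0 to 878 or 884 with limma on FPKM, 162 without a filter, 684 with 10 counts in every library, 14 without mitochondrial rows, 822 with counts divided by 4, and from 0 to 653 with 1 library left out. No scaling moved the median of all genes by over 0.1 on the log2 scale. Dividing the counts by the listed span gave the same direction for the ratio of Neat1 to Malat1. Depth was lowest for H19, with about 4 to 13 fragments a library.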
